A study of Homo sapiens with 48 samples.

Results

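The comparison described here set the 4 T-REX libraries of 12 h against the 4 probe alone libraries of the same time point, which are 8 of the 48 libraries in the series. Both arms were HEK293T cells, a human embryonic kidney cell line, of wild-type genotype. Both were transfected with a plasmid that encodes NCBP1 fused to Halo, and both received the photocaged probe Ht-PreHNE, which binds covalently to the Halo domain. The T-REX arm was then exposed to light, which frees the reactive aldehyde 4-hydroxynonenal (HNE) next to NCBP1, and the probe alone arm was not. The cells of both arms therefore shared the plasmid and the probe. They differed in exposure to light and in release of HNE, and the effects of those steps cannot be told apart within this comparison. The study's Methods for T-REX in these cells, RNA-seq plates included, name the alkyne form of the probe, which frees an alkyne analog of HNE. Its Results say that experiments on signaling used the form that frees native HNE, so HNE stands here for either. RNA was purified 12 h after the treatment from 4 biological replicates of each arm. The other arms of the time point were light alone and DMSO, again with 4 libraries each, and the same 4 arms were sampled at 3 h and 6 h. The study's Methods list the probe together with light for the light alone arm, so whether those cells carried the probe is not settled here, and its values are given beside those of the main comparison without a reading of which step they isolate. The fusion protein was made from a transfected plasmid, so its level varies from cell to cell, and the deposited counts do not separate plasmid from endogenous NCBP1 RNA.

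NCBP1 is the larger protein of the complex that binds RNA caps in the nucleus, which holds the cap of newly made RNA polymerase II transcripts together with NCBP2 and passes them to splicing, export and 3′-end processing. HNE is a product of lipid peroxidation that modifies cysteine residues. Among the pathways met below, ATF4 is a transcription factor made when translation initiation is limited, and it binds composite C/EBP-ATF elements in front of genes for amino acid uptake, amino acid synthesis and tRNA charging. HIF transcription factors, which are degraded when oxygen is available, bind a short core motif in front of genes for glycolysis, mitophagy and collagen modification. MondoA binds E-box pairs in front of TXNIP and ARRDC4 when glycolytic intermediates are plentiful.

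Promoter sequence was examined because genes of those pathways were among the ones that moved. RefSeq promoter windows of GRCh38.p14, each 300 bases long and running from 250 bases before a gene's start to 50 after it, were matched by symbol for 23 of the 29 genes called higher, 60 of the 74 called lower and 10451 of the 14685 genes tested. The motif TGATGNAA, the core of a C/EBP-ATF composite element, was searched on both strands (TTNCATCA on the other). It was present in 7 of the 23 windows of genes called higher (30.4%), in 1 of the 60 of genes called lower (1.67%) and in 168 of all 10451 (1.61%). The calls of these 7 genes were not stable in 8 fits that each left out 1 T-REX or probe alone library. BCAT1, MTHFD1L and SLC38A1 kept theirs in 3 of the 8, IARS1, MARS1 and SLC7A1 in 2 and HRK in 1. SLC7A11 and ALDH1L2, called higher in all 8, had no window to search. The 30 bases around each of the 7 matches are shown 5′ to 3′ on the strand of the gene, with the motif in capitals, because the motif is a sequence feature that several of the higher genes share.
BCAT1, chr12:24949131-24949160, minus strand: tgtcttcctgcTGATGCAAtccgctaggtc
HRK, chr12:116881498-116881527, minus strand: cgggggccggaTGATGTAAcccccctcccc
IARS1, chr9:92293692-92293721, minus strand: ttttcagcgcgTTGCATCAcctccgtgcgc
MARS1, chr12:57488053-57488082, plus strand: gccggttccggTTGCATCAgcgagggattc
MTHFD1L, chr6:150866346-150866375, plus strand: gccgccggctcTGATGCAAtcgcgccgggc
SLC38A1, chr12:46266502-46266531, minus strand: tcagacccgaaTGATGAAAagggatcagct
SLC7A1, chr13:29595663-29595692, minus strand: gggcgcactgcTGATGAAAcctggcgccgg
Counted from the annotated start of the gene, the motif began at base -13 in IARS1, -4 in MARS1, -4 in SLC38A1 and 8 in SLC7A1, and farther upstream at -48 in BCAT1, -75 in HRK and -129 in MTHFD1L. The only lower gene whose window held it was VGLL4, a transcription cofactor.

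The hypoxia response core, ACGTG or GCGTG on either strand, was about as frequent in the windows of lower genes as in all windows. It was present in 38 of the 60 windows of genes called lower (63.3%), in 18 of the 23 of genes called higher (78.3%) and in 6684 of all 10451 (64.0%). Clusters of the core in the windows of 3 lower genes are shown as context for their values below, 100 bases each, with every match on either strand in capitals.
LDHA, chr11:18394395-18394494, plus strand: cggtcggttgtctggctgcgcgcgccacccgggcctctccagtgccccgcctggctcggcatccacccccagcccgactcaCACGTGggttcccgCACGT
PGK1, chrX:78103998-78104097, plus strand: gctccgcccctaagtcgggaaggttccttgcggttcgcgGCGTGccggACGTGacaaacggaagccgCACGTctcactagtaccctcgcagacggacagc
BNIP3, chr10:131982023-131982122, minus strand: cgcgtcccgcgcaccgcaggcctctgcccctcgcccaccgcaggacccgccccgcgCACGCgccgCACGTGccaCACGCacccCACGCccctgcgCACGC
The stretch holds 3 matches in LDHA, 3 in PGK1 and 6 in BNIP3, and CACGTG counts as 2 overlapping matches because it reads the same on both strands. The E-box CACGTG itself was in 7 of the 60 lower windows (11.7%), 4 of the 23 higher windows (17.4%) and 1047 of all (10%). The motif TGACGTGG of XBP1 and ATF6 was in 0 lower and 1 higher window (4.35%) against 107 of all (1.02%). The cAMP response element TGACGTCA was in 3 lower (5%) and 0 higher windows against 372 of all (3.56%). A motif match is a match of letters in this window only.

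The total counts ran from 26799819 to 37099535 in the T-REX libraries and from 27891646 to 29685036 in the probe alone libraries, and values below are library-scaled counts (CPM) after TMM normalization. The targeted gene NCBP1 stood at 60748, 55582, 53460.0 and 65388 CPM in the T-REX libraries and at 54596, 57872, 54206 and 75762 CPM in the probe alone libraries, and the groups overlapped (-0.04 ± 0.13, log2 fold change ± SE, adjusted p = 0.942). It was lower by value in light alone, at 35301, 43365, 36488 and 50254 CPM (-0.55 against probe alone, adjusted p = 0.0699). Of 12 markers of the HEK293 line, 11 were among the genes listed, PAX2 was not, and 0 of the 11 were called in edgeR, with 0 at an unadjusted p up to 0.05. Of 14 markers of other cell types, only COL1A1 was listed, at 3.93 ± 0.706 CPM (mean ± SD, n = 4) in T-REX and 4.94 ± 0.417 CPM in probe alone (adjusted p = 0.461). The median SD of a gene's log2 CPM between replicates was 0.08 in T-REX and 0.09 in probe alone, but 0.14 in the DMSO arm, whose replicate 3 stood apart on the first principal component (33.0% of the variance). All 16 libraries of 12 h were fitted together, so that spread entered the tests.

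In all, 103 genes passed edgeR's quasi-likelihood test at an adjusted p of at most 0.05, of which 29 were higher (0.197% of the 14685 genes tested) and 74 lower (0.504%) in T-REX cells. The changes were small. Across the 103, the absolute log2 fold change had a median of 0.37, 23 exceeded 1.5-fold and 4 exceeded 2-fold. RARB and TXNIP were among those that fell by more than 2-fold, and TMEM130, a gene of low level at 0.918 ± 0.251 CPM in probe alone, was the one that rose by as much. All 4 T-REX libraries lay above all 4 probe alone libraries for 29 of the 29 genes called higher, where the background over all genes was 4.22%, and below them for 72 of the 74 called lower, where it was 4.64%. The 2 exceptions were NRN1 and BHLHE40. The genes were called on these same libraries, so this separation largely follows from the calling and is not added evidence. The median log2 fold change over all genes was 0.00, with 50.4% of genes positive and 49.6% negative. An unadjusted p up to 0.05 was reached by 1637 of the 14685 genes, 713 higher and 924 lower. Counts given for gene lists below stand against these values over all genes. As these are bulk samples, fewer cells with a transcript and less of it per cell cannot be told apart.

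**Figure D1:**
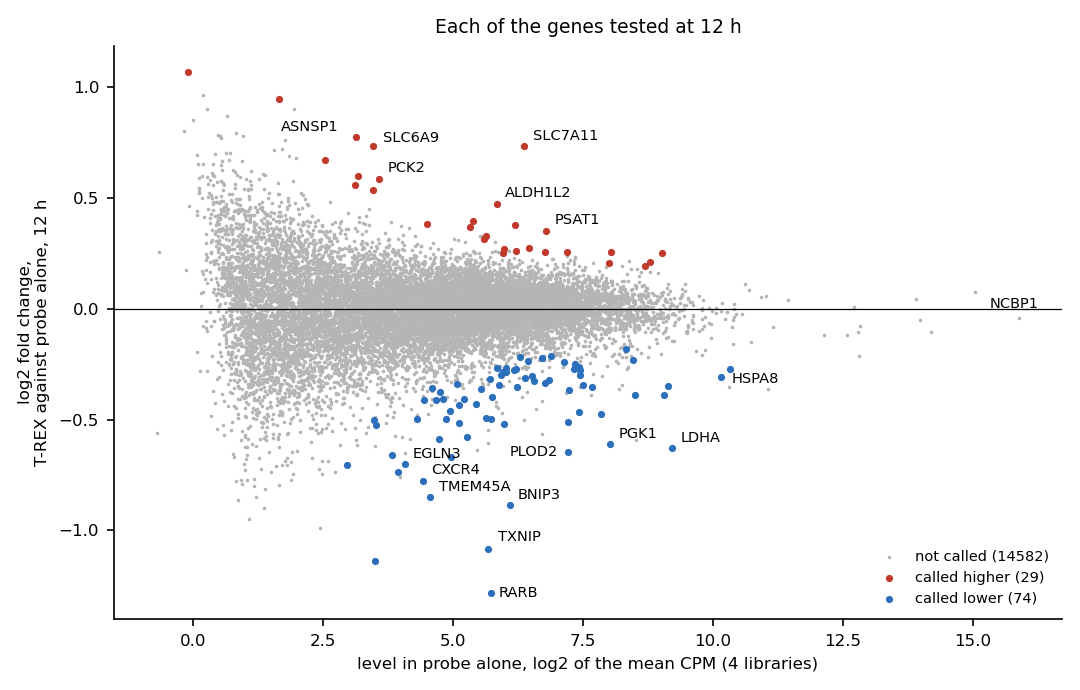
Level and difference of each gene at 12 h. The x axis is the log2 of the mean CPM in the 4 probe alone libraries and the y axis the log2 fold change of T-REX against probe alone, with the 29 genes called higher in red, the 74 called lower in blue and the other 14582 in grey. NCBP1 lies at the far right near 0, and the genes called lower lie at intermediate and high levels.

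How many genes were called depended on the libraries in the fit. The count was 389 when only the 2 arms were fitted and 549 without the DMSO arm, a fit chosen after seeing the data, and both included all 103, while leaving out 1 library of either arm gave between 29 (without T-REX replicate 1) and 209 (without probe alone replicate 4). The 23 genes called in each of the 8 fits that left out 1 T-REX or probe alone library were ALDH1L2, SLC6A9, SLC7A11 and the pseudogene ASNSP1, which were higher, and 19 lower genes, among them RARB, TXNIP, BNIP3, CXCR4, EGLN3, PLOD2, LDHA, PGK1, PFKFB3, P4HA1, ARRDC4, PKM and TFRC. Other calls were less stable. XBP1, HRK, SNRPD3, IDI1, HSP90AA1 and PGM1, among others, kept theirs in 1 of those 8 fits.

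Carriers of amino acids were among the genes that rose. Of 23 amino acid transporters tested, 4 were called higher and 0 lower, and 21 had a positive log2 fold change, with a median of 0.17. Over all genes, 0.197% were called higher and 50.4% were positive. SLC7A11 (ENSG00000151012), the cystine-glutamate exchanger that feeds glutathione synthesis, stood at 158, 135, 126 and 130.0 CPM in the T-REX libraries and at 75.1, 80.9, 74.1 and 101 CPM in the probe alone libraries. The groups did not overlap, although probe alone replicate 4 was the highest of its arm, and the mean was 1.66-fold higher (0.73 ± 0.11, adjusted p = 0.00257). SLC6A9 (ENSG00000196517), the glycine transporter GLYT1, stood at 20.6, 17.4, 16.8 and 17.8 CPM against 11.3, 11.7, 9.47 and 11.3 CPM (1.66-fold, 0.73 ± 0.12, adjusted p = 0.00273). Its groups did not overlap either.

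The other transporters called were abundant and rose by less. SLC38A1, a sodium-coupled carrier of glutamine and other neutral amino acids whose promoter motif lies near the start of the gene, rose from 521 ± 11.5 to 619.9 ± 36.8 CPM (mean ± SD, n = 4 each; adjusted p = 0.0192). SLC7A1, the main carrier of cationic amino acids, rose from 262 ± 15.6 to 313 ± 11.1 CPM (adjusted p = 0.0233). SLC3A2, the heavy chain shared by SLC7A11 and SLC7A5, had a log2 fold change of 0.23 ± 0.08 and was not called (adjusted p = 0.254). SLC7A5 itself, a carrier of large neutral amino acids, had 0.22 ± 0.10 (adjusted p = 0.379). Outside the list, the monocarboxylate transporter genes SLC16A9 and SLC16A6 also rose, by 0.54 ± 0.12 (adjusted p = 0.0263) and 0.56 ± 0.13 (adjusted p = 0.0411).

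Some enzymes of serine and one-carbon metabolism also rose. Of 17 genes for synthesis of asparagine, serine, proline and one-carbon units, 4 were called higher and 0 lower, with a median of 0.12. The share called higher over all genes was 0.197%. ALDH1L2 (ENSG00000136010), which oxidizes formyl-tetrahydrofolate in mitochondria, stood at 87.7, 83.9, 80.9 and 65.5 CPM in T-REX and at 55.6, 57.6, 55.1 and 60.9 CPM in probe alone. Every T-REX library was above every probe alone library, and replicate 4 was the lowest of the T-REX arm (1.39-fold, 0.47 ± 0.07, adjusted p = 0.00141). PSAT1, the aminotransferase of serine synthesis, rose from 111 ± 8.96 to 141 ± 9.68 CPM (adjusted p = 0.0138). MTHFD2 and MTHFD1L, which act on folate-bound one-carbon units in mitochondria, had 0.27 ± 0.06 (adjusted p = 0.0364) and 0.27 ± 0.06 (adjusted p = 0.0197). PHGDH and PSPH, the first and last enzymes of serine synthesis, had log2 fold changes of 0.10 and -0.08 and were not called.

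ASNS, which makes asparagine, stood at 10.5, 11.1, 8.91 and 8.53 CPM in T-REX and 7.30, 7.03, 7.41 and 8.73 CPM in probe alone and was not called (adjusted p = 0.391), while its pseudogene ASNSP1 stood at 14.5, 16.2, 13.1 and 15.7 against 8.76, 9.56, 7.61 and 8.87 CPM and was (0.77 ± 0.13, adjusted p = 0.00329). The sequences are alike and the treatment of reads that fit both is not given in the sources used here, so the split between them is uncertain. BCAT1, which transaminates branched-chain amino acids, had 0.38 ± 0.08 (adjusted p = 0.0228), and PCK2, the mitochondrial phosphoenolpyruvate carboxykinase, had 0.59 ± 0.14 (adjusted p = 0.0411).

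Charging enzymes for tRNA and regulators of the ATF4 branch held a few calls. Of 20 cytosolic aminoacyl-tRNA synthetases, 2 were called higher and 0 lower (median 0.10). MARS1, which charges methionine tRNA, stood at 132, 129, 129 and 132 CPM in T-REX and at 108, 108, 109.5 and 111 CPM in probe alone, a small difference between tight groups (0.26 ± 0.05, adjusted p = 0.0175). IARS1, which charges isoleucine tRNA, rose from 411 ± 3.80 to 470.3 ± 20.6 CPM (adjusted p = 0.0245), whereas YARS1, the tyrosine enzyme, had 0.20 ± 0.09 and was not called (adjusted p = 0.376). Of 19 genes of the ATF4 network, CEBPG, a partner of ATF4 on composite elements, was the 1 called (0.26 ± 0.06, adjusted p = 0.0197), and the median of the list was 0.19. ATF4 RNA itself stood at 391, 385, 364 and 400.5 CPM against 323, 320.0, 334 and 351 CPM, groups that did not overlap, but was not called (0.22 ± 0.05, adjusted p = 0.0561). DDIT3 and TRIB3, stress genes downstream of ATF4, had 0.02 ± 0.17 and 0.21 ± 0.12 (adjusted p = 0.982 and 0.55).

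XBP1, a transcription factor of the unfolded protein response, was called higher, at 73.6 ± 0.741 CPM against 61.9 ± 4.06 CPM (0.25 ± 0.06, adjusted p = 0.0409). Among 34 ER chaperones and degradation factors 0 were called in edgeR, 5 had an unadjusted p up to 0.05 and the median was -0.02. HRK, a BH3-only member of the BCL2 family that promotes apoptosis, rose from 22.7 ± 2.01 to 29.6 ± 1.82 CPM (adjusted p = 0.0411), and it was the 1 called of 11 genes of that family. EIF1, which selects the start codon, rose from 439 ± 24.6 to 508 ± 15.4 CPM (adjusted p = 0.0263), as the 1 called of 38 initiation factors. CPEB2, a protein that binds cytoplasmic polyadenylation elements, had 0.40 ± 0.07 (adjusted p = 0.00643), and OVGP1 had 0.60 ± 0.12 (adjusted p = 0.0138).

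**Figure D2:**
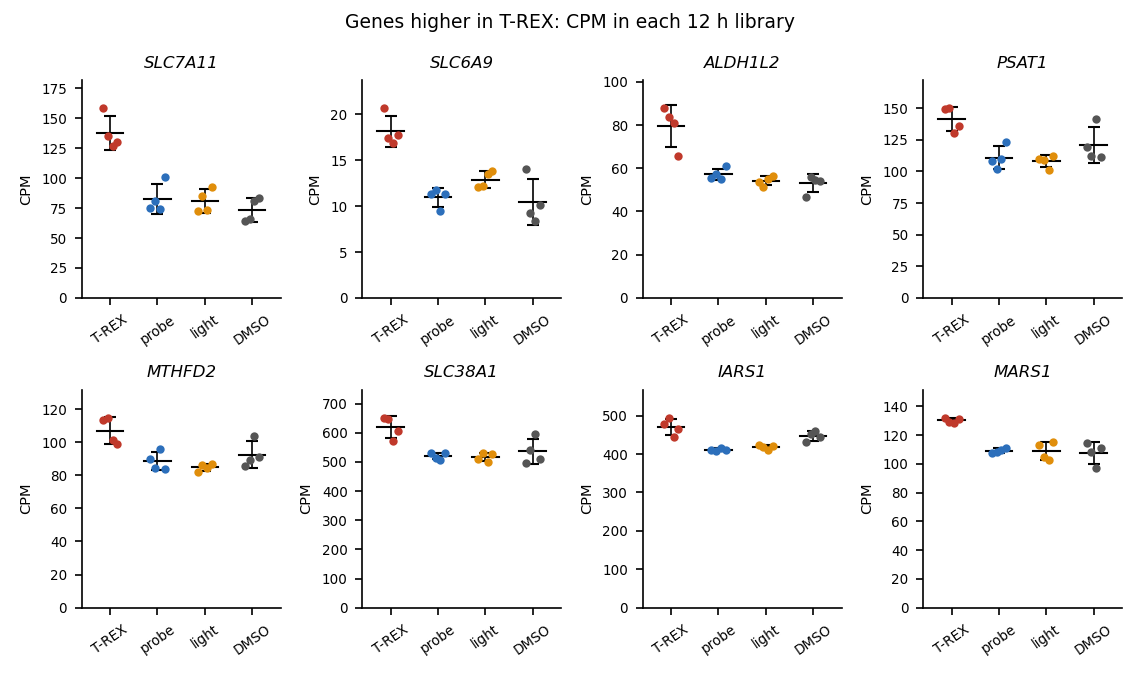
CPM of 8 genes that rose, in each 12 h library of the 4 arms. Points are libraries, lines are means and error bars are SD over 4 libraries. In each panel the T-REX points lie above the probe alone points, and the light alone points overlap or lie close to probe alone.

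Genes of glycolysis and the hypoxia response were among those that fell. Of 29 genes of glycolysis and glucose uptake, 10 were called lower and 0 higher, 27 had a negative log2 fold change and the median was -0.33. Of 30 hypoxia targets outside metabolism, 8 were called lower and 0 higher, 29 were negative and the median was -0.29. Over all genes, 0.504% were called lower and 49.6% were negative. LDHA (ENSG00000134333), which reduces pyruvate to lactate, stood at 348, 388, 434 and 366 CPM in the T-REX libraries and at 630.1, 614, 641 and 491 CPM in the probe alone libraries. The groups did not overlap and the T-REX mean was 35.4% lower (-0.63 ± 0.08, adjusted p = 0.000545). PGK1, the glycolytic kinase that makes ATP, stood at 154, 175, 184 and 170.4 CPM against 280.0, 257, 292 and 213 CPM (34.5% lower, -0.61 ± 0.08, adjusted p = 0.000316). In both genes probe alone replicate 4 was the lowest of its arm and the nearest to the T-REX libraries.

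Other genes of the glycolysis list were called as well. SLC2A1, the glucose transporter GLUT1, fell from 52.7 ± 5.08 to 37.4 ± 3.91 CPM (adjusted p = 0.0102). PFKFB3, which makes the activator of phosphofructokinase, had -0.58 ± 0.10 (adjusted p = 0.00499), and TPI1, PGAM1, PGM1, ENO1 and PKM had log2 fold changes of -0.47, -0.33, -0.32, -0.35 and -0.39. PDK1, the kinase that turns off pyruvate dehydrogenase, fell from 147 ± 14.8 to 104 ± 8.57 CPM (adjusted p = 0.0233). GAPDH, with 1478, 1469, 1583 and 1596 CPM in T-REX and 1688, 1825, 1808 and 1467 CPM in probe alone, overlapped between the arms and was not called (-0.15 ± 0.10, adjusted p = 0.625).

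Outside metabolism, the mitophagy receptor BNIP3 (ENSG00000176171) fell most among the called hypoxia targets. It stood at 32.5, 35.4, 44.98 and 34.6 CPM in T-REX and at 73.6, 71.8, 70.8 and 55.5 CPM in probe alone, so that the highest T-REX library was below the lowest probe alone library (45.9% lower, -0.89 ± 0.10, adjusted p = 1.61e-05). Its relative BNIP3L fell from 171 ± 5.28 to 124 ± 6.86 CPM (adjusted p = 0.0102). PLOD2 and P4HA1, which hydroxylate lysine and proline of collagen, fell from 148 ± 14.5 to 94.6 ± 3.47 CPM (adjusted p = 0.00159) and from 62.6 ± 5.88 to 43.7 ± 3.77 CPM (adjusted p = 0.00196). KDM3A, a histone demethylase, had -0.35, AK4, a mitochondrial adenylate kinase, had -0.34, BHLHE40, a transcription repressor, had -0.33 and NDRG1 had -0.32, all with adjusted p between 0.0194 and 0.0427. VEGFA, the endothelial growth factor, had groups that did not overlap but was not called (-0.16 ± 0.08, adjusted p = 0.421).

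Of the 9 HIF subunits and oxygen sensors, the 1 called was EGLN3, a prolyl hydroxylase that marks HIF for degradation and is itself a HIF target. EGLN3 (ENSG00000129521) stood at 8.77, 9.77, 11.2 and 11.5 CPM in T-REX and at 19.5, 15.98, 16.2 and 15.3 CPM in probe alone (38.5% lower, -0.70 ± 0.12, adjusted p = 0.00266), and the groups did not overlap. HIF1A RNA stood at 176 ± 6.17 and 174 ± 1.85 CPM (0.02 ± 0.06, adjusted p = 0.945). Averaged over its members and set against the probe alone mean on the log2 scale, the list outside metabolism lay between -0.40 and -0.19 in the T-REX libraries and between -0.13 and 0.05 in the probe alone libraries. The glycolysis list lay between -0.40 and -0.18 in T-REX and between -0.14 and 0.05 in probe alone, where replicate 4 was the low library in both lists. In light alone the lists lay between -0.08 and 0.12 and between -0.06 and 0.06, and in DMSO between -0.16 and 0.05 and between -0.20 and -0.04, so that in glycolysis DMSO replicate 3 reached into the T-REX range.

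TXNIP, an arrestin that inhibits thioredoxin and glucose uptake, and its relative ARRDC4 were the genes called among 9 of the MondoA group. TXNIP (ENSG00000265972) stood at 22.2, 22.9, 26.3 and 24.4 CPM in T-REX and at 46.3, 49.3, 50.6 and 56.9 CPM in probe alone (52.9% lower, -1.08 ± 0.10, adjusted p = 6.51e-07). ARRDC4 stood at 25.7, 23.7, 25.5 and 22.3 CPM against 37.9, 33.9, 33.3 and 33.7 CPM (30.02% lower, -0.51 ± 0.07, adjusted p = 0.000536). Neither pair of groups overlapped. ARRDC3, another arrestin, had a positive value and was not called (0.23 ± 0.11, adjusted p = 0.423).

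CXCR4, the receptor of the chemokine CXCL12, stood at 10.8, 13.3, 13.3 and 12.3 CPM in T-REX and at 21.8, 21.7, 23.2 and 18.5 CPM in probe alone (41.6% lower, -0.78 ± 0.11, adjusted p = 0.000316). All 4 T-REX libraries were below the lowest probe alone library. MAP2K6, a kinase that activates p38, fell from 49.3 ± 5.32 to 35.02 ± 3.09 CPM (adjusted p = 0.00155), and IGFBP5, which binds insulin-like growth factors, from 54.01 ± 5.99 to 41.03 ± 2.24 CPM (adjusted p = 0.0138). TMEM45A, a transmembrane protein gene, stood at 13.1, 12.3, 13.7 and 13.1 CPM against 24.8, 25.9, 21.3 and 22.04 CPM (-0.85 ± 0.09, adjusted p = 1.05e-05). Each of these 4 genes had groups that did not overlap. FUT11, a fucosyltransferase gene, had -0.74 ± 0.16 (adjusted p = 0.0233).

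The antisense transcript PRC1-AS1 was called higher (0.67 ± 0.16, adjusted p = 0.0427). Whether the counting used the strand is not given in the sources used here, so its reads cannot be told apart from those of an overlapping gene.

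RARB, the retinoic acid receptor beta, had the largest decrease in the comparison. RARB (ENSG00000077092) stood at 21.6, 18.9, 23.1 and 23.1 CPM in T-REX and at 49.3, 59.8, 49.8 and 52.3 CPM in probe alone (58.9% lower, -1.28 ± 0.09, adjusted p = 7.51e-10). The light alone libraries stood at 26.1, 26.2, 27.8 and 25.9 CPM, close to T-REX, so that the log2 fold change was -0.99 for light alone against probe alone (adjusted p = 1.67e-07) and -0.29 for T-REX against light alone (adjusted p = 0.105). DHRS3, a retinaldehyde reductase and a target of retinoic acid, stood at 8.07, 7.72, 8.98 and 10.8 CPM in T-REX, 11.9, 14.7, 12.3 and 17.3 CPM in probe alone and 8.16, 8.29, 9.31 and 7.74 CPM in light alone. T-REX was below probe alone (-0.66 ± 0.13, adjusted p = 0.0102) and had 0.09 against light alone (adjusted p = 0.842). These were the 2 genes called among 9 retinoid receptors and targets, whose median was -0.14.

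Over the 74 genes called lower, the median was -0.38 for T-REX and -0.11 for light alone, each on the log2 scale against the same probe alone libraries, and over the 29 called higher it was 0.37 and -0.01. These genes were selected on T-REX against probe alone, which by itself favours larger T-REX medians, so the medians are not a contrast of the arms. Some other genes called lower had light alone values near those of T-REX, of which examples follow. The small Cajal body RNA SCARNA21 stood at 4.72 ± 0.913 CPM in T-REX, 7.73 ± 0.303 in probe alone and 4.15 ± 0.371 in light alone (adjusted p = 0.0245 against probe alone and 0.67 against light alone). IDI1, an isomerase of the sterol pathway and the 1 called of 23 sterol genes, stood at 143 ± 4.39, 171 ± 4.88 and 131 ± 8.61 CPM in the same order (adjusted p = 0.0435 and 0.431). COX6C, a subunit of cytochrome oxidase and the 1 called of 47 nuclear respiratory chain genes, stood at 21.2 ± 1.02, 28.05 ± 1.05 and 22.1 ± 1.56 CPM (adjusted p = 0.0102 and 0.807). The sterol list, averaged and set against the probe alone mean on the log2 scale, was below probe alone in DMSO too. It lay between -0.21 and -0.06 in DMSO and between -0.23 and -0.16 in light alone. In T-REX it lay between -0.13 and -0.08 and in probe alone between -0.03 and 0.03. TIPARP, a target of the aryl hydrocarbon receptor, was highest in light alone, at 84.8 ± 5.26 CPM, with 69.6 ± 4.72 CPM in T-REX and 58.4 ± 3.72 CPM in probe alone. The adjusted p of T-REX against probe alone was 0.0657.

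For the hypoxia, MondoA and amino acid genes the light alone values lay with probe alone in most cases. Light alone against probe alone, in which 0.415% of genes were called, gave log2 fold changes of 0.06 for LDHA, -0.08 for BNIP3, -0.03 for PLOD2, 0.12 for ARRDC4, -0.03 for SLC7A11 and -0.08 for ALDH1L2, with adjusted p of at least 0.537. TXNIP lay between, at 32.4, 37.8, 35.7 and 42.4 CPM in light alone (-0.45, adjusted p = 0.0365). T-REX against light alone, in which 1.29% of genes were called, shares the T-REX libraries with the main comparison and gave -0.69 for LDHA (adjusted p = 0.000159), -0.81 for BNIP3 (adjusted p = 7.79e-05), -0.63 for TXNIP (adjusted p = 0.00088) and 0.77 for SLC7A11 (adjusted p = 0.000957). T-REX against DMSO, in which 10.9% of genes were called, gave -0.72, -0.78, -0.94, -1.02 and 0.90 for LDHA, BNIP3, TXNIP, RARB and SLC7A11, with adjusted p of at most 9.79e-05.

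**Figure D3:**
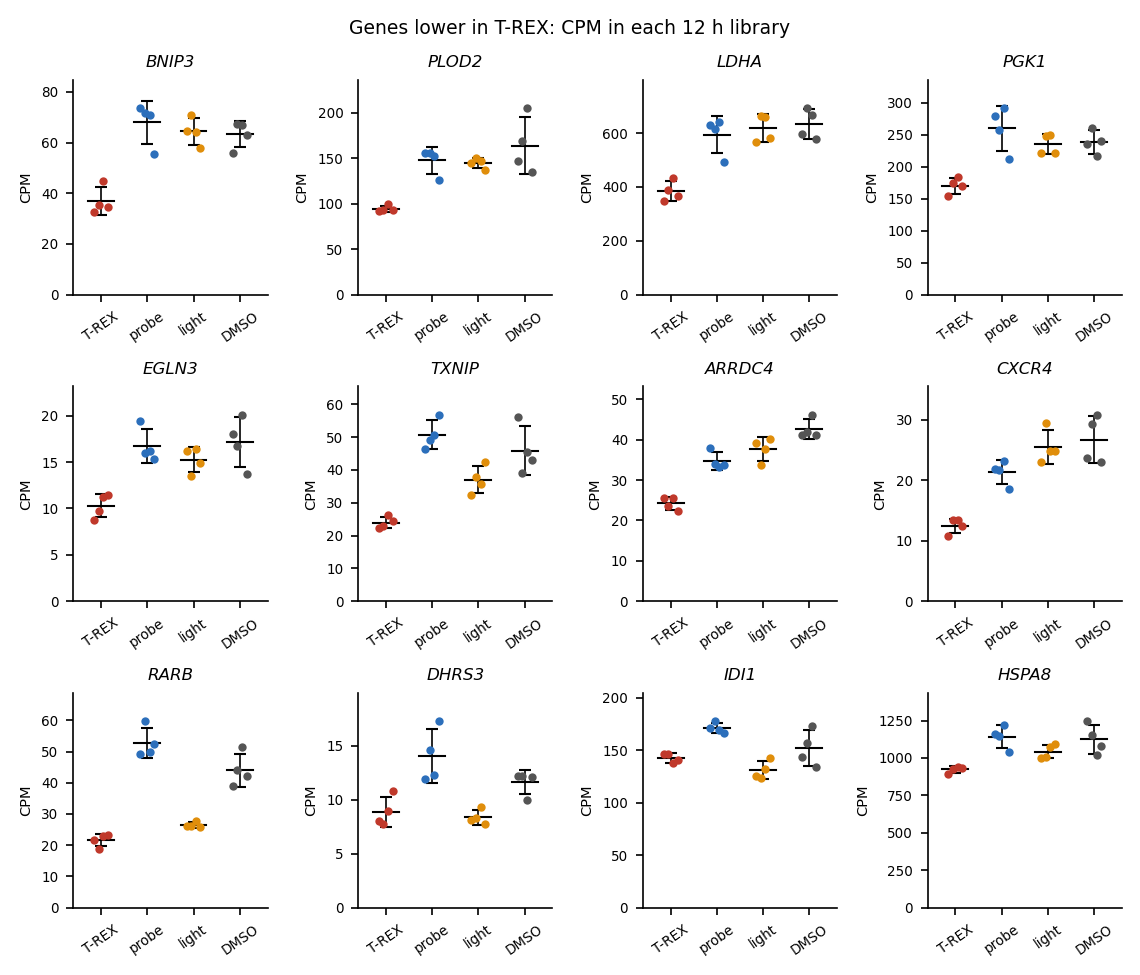
CPM of 12 genes that fell, in each 12 h library of the 4 arms, drawn as in the plot of the genes that rose. The light alone points of BNIP3, PLOD2, LDHA, EGLN3 and ARRDC4 lie with probe alone, and those of CXCR4 overlap probe alone or lie above it. Those of RARB and DHRS3 lie with or near T-REX, and those of TXNIP lie between.

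Several families of abundant transcripts had negative medians. Of 20 genes of the cytosolic heat shock response, 3 were called lower and 0 higher, 19 were negative and the median was -0.19. The shares over all genes were 0.504% called lower and 49.6% negative. HSPA8, the constitutive HSP70 chaperone, stood at 891, 929, 941 and 932 CPM in T-REX and at 1159, 1149, 1221 and 1041 CPM in probe alone (-0.31 ± 0.06, adjusted p = 0.00667). DNAJA1, its J-domain partner, had -0.30 ± 0.06 (adjusted p = 0.0138) and HSP90AA1 had -0.27 ± 0.06 (adjusted p = 0.0192). For all 3 the light alone means, 1043 ± 45.9, 152 ± 11.1 and 1122 ± 17.2 CPM, lay between the arms. Averaged over the whole list and set against the probe alone mean on the log2 scale, T-REX lay between -0.22 and -0.18, probe alone between -0.03 and 0.06 and light alone between -0.23 and -0.10, so that light alone overlapped T-REX and not probe alone. DMSO was spread from 0.09 in replicate 1, above probe alone, to -0.20 in replicate 4, in the T-REX range. Its replicates 2 and 3, at -0.09 and -0.14, were also below probe alone.

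All 18 replication-dependent histone genes had a negative log2 fold change, where the share over all genes was 49.6%. Their median was -0.40, but their spread was wide and 1 was called. H4C8, a histone H4 gene, stood at 21.8, 16.6, 21.2 and 18.7 CPM in T-REX, 36.4, 27.9, 32.9 and 27.6 CPM in probe alone and 20.3, 20.7, 18.9 and 23.8 CPM in light alone (-0.67 ± 0.14, adjusted p = 0.0263). The mean of the histone list on the log2 scale, set against probe alone, was between -0.53 and -0.21 in T-REX, -0.11 and 0.23 in probe alone, -0.24 and -0.15 in light alone and -0.34 and 0.53 in DMSO. The 78 cytosolic ribosomal protein genes had a median of -0.12, with 0 called in edgeR and 25 at an unadjusted p up to 0.05, and the T-REX range of the list, -0.18 to -0.11, lay inside that of probe alone, -0.19 to 0.14.

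Of the 17 developmental transcription regulators on the list, 0 were called in edgeR and 4 had an unadjusted p up to 0.05 (median -0.10). Some regulators outside that list were called lower, and these were picked out after their values were seen. SOX9 fell from 26.4 ± 1.89 to 17.6 ± 2.19 CPM (adjusted p = 0.00245). The homeobox genes HOXA10 and HOXB3 had log2 fold changes of -0.41 and -0.27, and MEIS2, whose product binds DNA together with HOX proteins, had -0.35. All 3 had adjusted p between 0.00257 and 0.0254. TFRC, the transferrin receptor that takes up iron, also picked in this way, fell from 359.9 ± 25.3 to 275 ± 9.71 CPM (adjusted p = 0.00102). SNRPD3, a core protein of spliceosomal snRNPs, fell from 105 ± 4.10 to 89.9 ± 2.04 CPM (adjusted p = 0.0415) and was the 1 called of 32 snRNP proteins. POU3F2, DACH1 and SESN3, which the study names, had log2 fold changes of -0.27, -0.23 and -0.17 with groups that did not overlap and were not called (adjusted p = 0.116, 0.107 and 0.348). QKI, BMP4 and TINCR, named there too, had overlapping groups and were not called. The study named its genes on these samples, so the 11 of 18 called here are not independent evidence of a direction.

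Most of the other lists had 0 genes called in edgeR. Over all 14685 genes tested, 1637 had an unadjusted p up to 0.05, and the counts below stand beside that. Of 22 listed targets of NRF2, a transcription factor of the electrophile response, 10 had an unadjusted p up to 0.05, 7 of them higher and 3 lower, and the median was 0.06. That list did not hold SLC7A11, which was counted with the amino acid transporters and called higher. TXN, thioredoxin and the member of smallest p, stood at 117, 113, 102 and 111 CPM in T-REX and at 159, 135, 158 and 123 CPM in probe alone, groups that did not overlap, with T-REX the lower (-0.38 ± 0.10, adjusted p = 0.109). HMOX1, heme oxygenase and a classic target of that factor, stood at 23.4, 23.1, 27.4 and 27.5 CPM in T-REX and 15.2, 20.6, 19.6 and 28.03 CPM in probe alone, and the groups overlapped (adjusted p = 0.427). Of 22 p53 targets 2 had an unadjusted p up to 0.05 (median 0.01), and of 26 mitosis genes 3 did (median -0.03). The counts at that unadjusted p were 3 of 21 for the COPII coat, 2 of 20 for SR splicing factors, 3 of 13 for mitochondrially encoded mRNAs, 4 of 23 for immediate early genes, 1 of 5 for the aryl hydrocarbon receptor, and 1 of 6 for the interferon response, with medians between -0.12 and 0.07. Of 26 genes of BMP and TGF-beta signalling 1 was called lower (median 0.01), and of 28 of insulin, mTORC1 and p38 signalling 2 were (median -0.04). Of 25 genes of the cap-binding complex and its partners, with 0 called in edgeR, 1 had an unadjusted p up to 0.05 (median 0.01), and NCBP2 had -0.07 ± 0.08 (adjusted p = 0.814) and RPS6KB1, a kinase that acts on translation, had 0.06 ± 0.06 (adjusted p = 0.784). The member of smallest p was SEC61B of the ER list (-0.32 ± 0.10), RPL11 of the ribosomal proteins (-0.35 ± 0.09), EGR1 of the immediate early genes (-0.61 ± 0.17), MT-ND3 of the mitochondrial mRNAs (-0.57 ± 0.18), SRSF6 of the SR factors (-0.17 ± 0.05) and MKI67 of the mitosis genes (-0.13 ± 0.04), all lower by value. It was SEC24B of the COPII coat (0.16 ± 0.06), POLDIP3 of the cap-binding list (0.19 ± 0.06) and DDX60 of the interferon list (0.31 ± 0.13), all higher by value, and HOXA9 of the HEK293 markers (-0.18 ± 0.09). None of these 10 was called, with adjusted p of at least 0.0943. These are calls at this spread and number of replicates and leave small changes undetected.

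**Figure D4:**
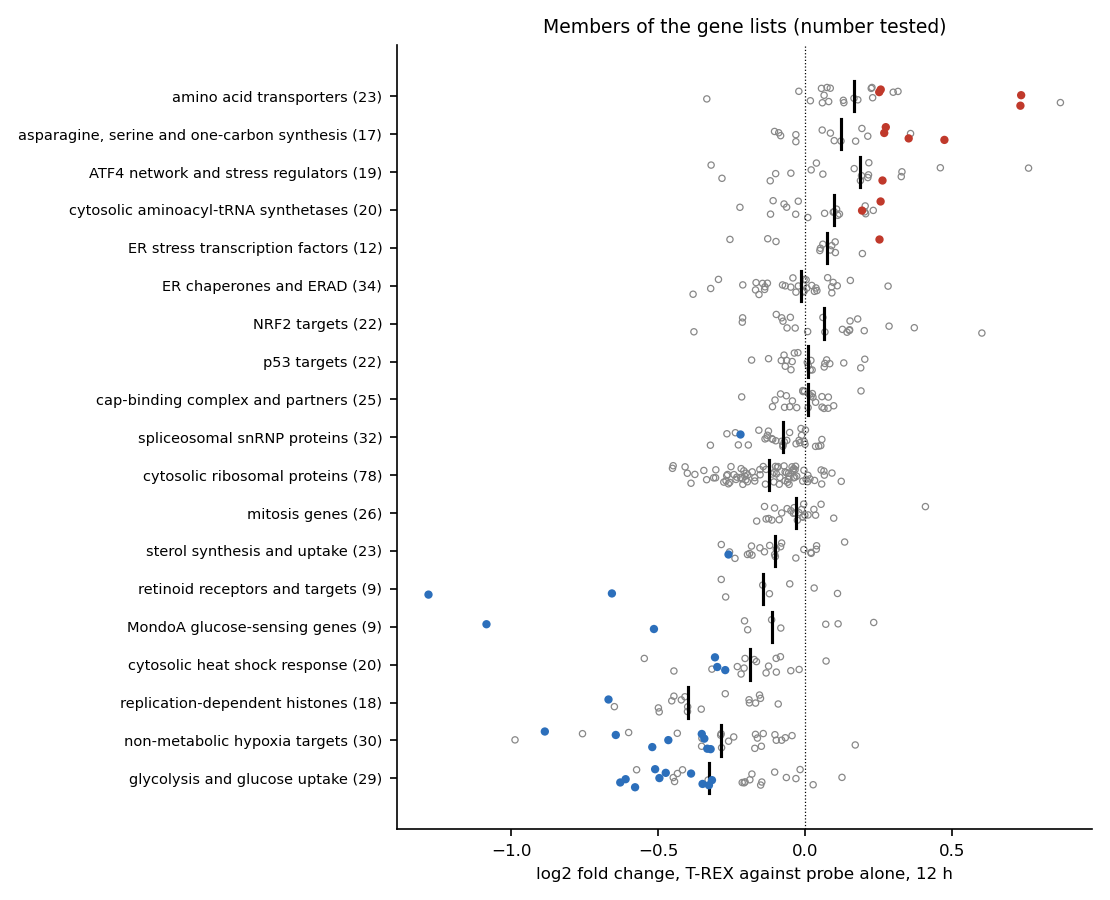
Log2 fold change of T-REX against probe alone at 12 h for the members of 19 gene lists, with the number tested in brackets. Filled points are genes called (red higher, blue lower), open points are genes not called and black bars are list medians. The medians run from 0.19 for the ATF4 network to -0.40 for the histones, with filled blue points mainly in the glycolysis and hypoxia lists.

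Gene structure and level were compared as a description. The median exonic length was 5159 bases for genes called higher, 5262 for genes called lower and 4748.5 for all genes with an entry in GENCODE 29, and the median of the largest number of exons in a transcript was 12, 7 and 8. The median level in probe alone was 57.3 CPM for the higher genes, 63.8 CPM for the lower genes and 22.2 CPM for all genes. By type, 26 of the 29 higher and 70 of the 74 lower genes were protein-coding.

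The same comparison at 3 h and 6 h used other libraries, of the same arms. The test called 16 genes at 6 h (0.109%), with 3 higher and 13 lower, and 154 at 3 h (1.05%), with 35 higher and 119 lower. At 6 h, 29 of the 29 genes called higher at 12 h had a positive log2 fold change, against 52% of all genes, and 69 of the 74 called lower had a negative one, against 48%. The medians at 6 h were 0.23 and -0.22. At 3 h the counts were 25 of 29, against 55.7% of all genes, and 65 of 74, against 44.3%, with medians of 0.13 and -0.15.

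Few genes passed the test at more than 1 time. Of the 74 genes called lower at 12 h, 11 were called lower at 6 h, which is 14.9% of the 12 h genes and 84.6% of the 13 at 6 h. They included RARB, TXNIP, BNIP3, EGLN3, ARRDC4, PDK1, MAP2K6, KDM3A, PNRC1 and FBXO5. At 3 h, 14 of the 74 were called lower (18.9% of those at 12 h and 11.8% of the 119 at 3 h). Of the 29 called higher, SLC7A11 was called at 6 h (3.45% of the 29 and 33.3% of the 3), and XBP1 and SLC16A6 at 3 h (6.9% of the 29 and 5.71% of the 35).

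Several of the genes above are followed over time here. RARB was lower at each time (-0.96, -1.16 and -1.28 at 3, 6 and 12 h), as was TXNIP (-0.70, -0.95 and -1.08), and each was called at all 3. BNIP3 had -0.16 at 3 h (adjusted p = 0.442) and -0.70 at 6 h (adjusted p = 0.0151). LDHA had -0.30 and -0.25 (adjusted p = 0.0735 and 0.717) before its -0.63 at 12 h. SLC7A11 had 0.42 and 0.73 (adjusted p = 0.0779 and 2.2e-05), and ALDH1L2 had 0.09 and 0.27 (adjusted p = 0.589 and 0.466). The list medians at 3, 6 and 12 h were -0.13, -0.08 and -0.33 for glycolysis, -0.14, -0.18 and -0.29 for the hypoxia targets outside metabolism, and 0.01, 0.08 and 0.17 for the amino acid transporters.

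A test of the difference itself, in a fit of all 48 libraries, called 10 genes between 12 h and 3 h (0.0681% of genes). That count was 0 when only the 2 arms were fitted and between 0 and 21 when 1 library was left out. TMEM45A was the 1 of them that was also called at 12 h, with a difference of -0.70 between its -0.14 at 3 h and its -0.85 at 12 h (adjusted p = 0.0227). The other 9 were higher at 12 h than at 3 h relative to probe alone, and RASAL2, NCAPH, NFYA and LHX4 had the smallest p among them. NFYA, a subunit of the CCAAT-binding factor, was -0.33 at 3 h and -0.02 at 12 h (difference adjusted p = 0.0334). Between 12 h and 6 h the test called 0 genes in edgeR (0% of genes), with 672 at an unadjusted p up to 0.05 and a lowest adjusted p of 0.566, and DESeq2 also called 0. The time courses of LDHA and SLC7A11 are therefore not shown to differ between the times (adjusted p = 0.339 and 0.365 for 12 h against 3 h).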

How the data were processed

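RNA of HEK293T cells was depleted of ribosomal RNA and sequenced as stranded paired-end libraries. The authors deposited raw counts per gene and log2 CPM for each time point, and the study's reporting form names the aligner TopHat, with cutadapt and Cufflinks, for the sequencing data. Which tool made the raw counts, and on which genome build, is not given in the sources used here. The deposited counts were the basis of every test. The deposited log2 CPM entered only the limma alternative, and the factor scores for unwanted variation that the authors deposited for each library entered only the alternative with those covariates.

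Counts of the 16 libraries of 12 h were normalized by TMM, filtered by filterByExpr, which removed 0 genes, and fitted by the quasi-likelihood method of edgeR 4.0.16 in R 4.3.3, with robust dispersions. Genes were called at a Benjamini-Hochberg adjusted p of at most 0.05, and every adjusted p in the text comes from this test. Differences between times came from a fit of all 48 libraries, while values at 3 h and 6 h came from the fit of each time. limma 3.58.1 and DESeq2 1.42.0 gave alternatives. The members and gene lists were chosen with earlier results of these data known. By rule, the text names the 12 called genes of largest and of smallest log2 fold change with a mean of at least 100 counts, the genes the study names, NCBP1, NCBP2, RPS6KB1, RARB and TIPARP, up to 4 called members of each list (the 1 of smallest p where none was called) and the 5 genes of smallest p of each time test. Other names were chosen after their values were seen. Groups came from the labels, and replicates of an arm differed by more than sampling noise. Gene positions were not used from the counts, since their build is not stated. Promoters came from RefSeq GRCh38.p14. The tests were checked on simulated data. Some items are not reported here.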

Additional observations from a re-analysis of the deposited data

Results flagged for a closer look

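Among the 162 groups of 4 libraries examined for named genes, 10 held a library whose gap to the nearest other was past the critical value of Dixon's test, and chance gives about 1 in 20 groups. Probe alone replicate 4 was the lowest of its arm for the hypoxia targets BNIP3, at 55.5 CPM with the others between 70.8 and 73.6 CPM, and PLOD2, at 126 CPM with the others between 153 and 156 CPM. It was also the lowest for IGFBP5, at 45.1 CPM (others 55.8 to 58.0), and the highest for NCBP1, at 75762 CPM (others 54206 to 57872). Probe alone replicate 1 was the highest for ARRDC4, at 37.9 CPM (others 33.3 to 33.9). In the T-REX arm, replicate 1 was the highest for PCK2, at 22.3 CPM (others 15.9 to 16.7), and the lowest for METTL17, at 28.4 CPM (others 30.9 to 31.3). Replicate 2 was the highest for OR7E14P, at 3.50 CPM (others 2.17 to 2.34), replicate 3 the lowest for CPEB2, at 50.4 CPM (others 56.0 to 56.9), and replicate 4 the highest for SRP19, at 39.0 CPM (others 36.5 to 36.8).

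The log2 fold change of T-REX against probe alone differed between 12 h and 3 h for 10 genes by edgeR's test of the difference. Given as 12 h minus 3 h, TMEM45A had -0.70, and the other 9 had positive differences. RASAL2 had 0.40, NCAPH 0.33, NFYA 0.33 and LHX4 0.94. OXA1L had 0.43, ACER3 0.43, SRGAP1 0.50, ITPRID2 0.37 and SLC39A14 0.35.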

How the results depend on the processing

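The number of genes called depended on the processing. No named gene that was called in the main fit or in an alternative had opposite directions in the 2 fits. Small changes of sign in genes called in neither fit were not counted as reversals. DESeq2 called 257 genes (78 higher, 179 lower), and 102 of the 103 were among them. Fitting only the 2 arms gave 389 (141 higher, 248 lower), factors of unwanted variation as covariates gave 901 (370 and 531), and leaving out the DMSO arm, an alternative chosen after seeing the data, gave 549 (214 and 335). RLE factors and no filter on low counts gave 103 each, a mean of at least 100 counts gave 114, and limma-trend on the deposited log2 CPM gave 99. Leaving out 1 of the 16 libraries gave 29 to 330 genes, with 5 to 126 higher and 24 to 204 lower. The count moved by over 1.5 times without T-REX replicate 1 (29), 2 (36) or 4 (51), without probe alone replicate 1 (34), 2 (37), 3 (31) or 4 (209), and without DMSO replicate 1 (170) or 3 (330). The cause was not tested.

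With the replicate number as a block, 90 genes were called (22 higher, 68 lower), and 82 of the 103 were among them. HRK, IDI1, PCK2, MTHFD2 and ENO1 were among those that lost their call. Same-numbered libraries of the arms deviated together weakly, with correlations of 0.15, -0.05, 0.11 and 0.23 over 10308 genes, and T-REX replicate 2 correlated best with probe alone replicate 1, so the numbers were not taken as pairs. The count of genes that differed between 12 h and 3 h, 10, was 66 in DESeq2, 0 with only the 2 arms, 20 with the replicate block, 2 with a mean of at least 100 counts and 0 to 21 without 1 library. Between 12 h and 6 h it was 0 in every setting run. For the named values, 655 of 727 under other settings stayed on the same side of the threshold, 9 lost their call and 63 gained one, and without 1 library 1077 of 1296 stayed, 194 lost it and 25 gained it. With 4 replicates an arm, small changes of low-count genes lie below what these tests detect.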
